A study of Homo sapiens with 24 samples.

Results

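PTBP1, PTBP2, QKI, MBNL1, MBNL2, TIA1, TIAL1 and CELF1 encode 8 RNA-binding proteins that themselves regulate splicing, translation or RNA stability. The peaks described here are those that overlapped the windows of these genes by at least 1 nt on the strand of the gene. There were 381 of them among the 269336 peaks of 7 lists, or 0.141%. They come from eCLIP, in which RNA fragments crosslinked to an immunoprecipitated protein are sequenced and set against a size-matched input of the same lysate. All libraries were from 293T, a human embryonic kidney line, and no other cell line was used. The groups were RBFOX2 immunoprecipitations (2 libraries, 40 U RNase I), SLBP immunoprecipitations (replicates 1 and 2 at 40 U, replicates 3 and 4 at 5 U of RNase I) and 1 control immunoprecipitation with IgG (40 U). The labels do not state whether the replicates are separate cultures. The spread between libraries, on which the permutation p-values rest, may therefore be technical.

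RBFOX2 is a splicing regulator that recognises UGCAUG and related elements in pre-mRNA. SLBP binds the stem-loop at the end of replication-dependent histone mRNAs and the control IgG is directed at no particular protein, so their libraries give the background here. Genes of splicing regulators often carry exons whose inclusion is controlled by the same protein or by another regulator, and some of these exons send the transcript to nonsense-mediated decay. PTBP1 and its neuronal relative PTBP2 bind pyrimidine-rich tracts and mostly repress exons, and PTBP1 protein lowers PTBP2 by causing an exon of its mRNA to be skipped. QKI is a STAR-family protein of myelination and circular RNA formation, and the muscleblind proteins MBNL1 and MBNL2 are sequestered on repeat RNA in myotonic dystrophy. TIA1 and TIAL1 bind U-rich RNA next to 5′ splice sites and take part in stress granules, and CELF1 binds GU-rich RNA and often acts against MBNL proteins.

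The windows, in hg19 coordinates counted from 1, were PTBP1 on chromosome 19 from 797300 to 812400, PTBP2 on chromosome 1 from 97187100 to 97289400, QKI on chromosome 6 from 163835600 to 163999700, MBNL1 on chromosome 3 from 151985800 to 152183600 and MBNL2 on chromosome 13 from 97873600 to 98046400, all on the plus strand. On the minus strand lay TIA1 on chromosome 2 from 70436500 to 70475800, TIAL1 on chromosome 10 from 121332900 to 121356600 and CELF1 on chromosome 11 from 47487400 to 47574800. The chromosome was that of the RefSeq gene for 8 of 8 genes and the strand for 7 of the 7 listed, and 5 windows had the RefSeq gene's length within 2%. The MBNL2 window was shorter than the RefSeq gene by 31.5%, and those of MBNL1 and CELF1 were shorter by over 10%, so distal peaks of these genes may lie outside them. No exon or intron annotation of hg19 was used here, and positions are therefore given as distances from the edges of the windows.

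The whole lists held 74902 and 97594 peaks for RBFOX2, between 10122 and 23034 for SLBP and 28361 for IgG. Every log2 fold over input and every p-value of a peak is the authors' own, the read depth behind it is unknown, and the scalings of different lists are not known to match. A peak is called enriched below when its −log10 p reached 5 and its log2 fold reached 3, an 8-fold excess over input. Peaks of 1 gene are not independent, and peaks that touch end to end may be pieces of 1 site. The −log10 p of 4 RBFOX2 peaks in these genes was 15.66, a value that 1684 and 1887 peaks of the RBFOX2 lists share, so the p-value serves only to set a limit.

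RBFOX2 immunoprecipitation gave enriched peaks in 7 of the 8 genes, all but MBNL2, in both replicates, and the SLBP and IgG libraries gave none in any of the 8. The RBFOX2 lists had 98 and 118 peaks in the windows, the SLBP lists 43, 28, 34 and 20, and the IgG list 40. Of these, 14 of 98 (14.3%, exact 95% interval 8.04 to 22.8) and 32 of 118 (27.1%, 19.3 to 36.1) were enriched in RBFOX2 replicates 1 and 2, where 7.95% and 7.66% of all peaks of these lists were. In SLBP replicates 1 to 4, 0 of 43, 0 of 28, 0 of 34 and 0 of 20 peaks were enriched, which allows shares of up to 6.98%, 10.7%, 8.82% and 15.0% when the limit is set at 3 counts of the total. Over the whole SLBP lists, 1.23%, 1.27%, 1.70% and 2.33% of peaks were enriched; beside shares this low, a count of 0 shows little. In the IgG list 0 of 40 were enriched, a share of up to 7.50% by the same limit, against 0.180% of that whole list. These intervals and limits cover counting error only.

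The mean number of enriched peaks in the 8 windows was 23 ± 12.7 for RBFOX2 (SD, n = 2) and 0 for SLBP (n = 4), a difference of 23 with a two-sided exact permutation p of 0.133, the smallest that 2 against 4 libraries can give. The mean share of enriched peaks was 20.7% ± 9.07 for RBFOX2 (SD, n = 2) and 0% for SLBP (n = 4; exact permutation p = 0.133). Both RBFOX2 libraries lay above all 4 SLBP libraries and the RBFOX2 replicates differed from each other most in PTBP1, which held 2 and 14 of the enriched peaks. Without PTBP1 the RBFOX2 counts were 12 of 78 (15.4%) and 18 of 88 (20.5%). With touching peaks merged they were 13 of 85 sites (15.3%) and 21 of 95 (22.1%), against 5.77% and 5.38% of the merged whole lists. The number of peaks called in the windows was 108 ± 14.1 for RBFOX2 (SD, n = 2), 31.25 ± 9.71 for SLBP (SD, n = 4; exact permutation p = 0.133) and 40 for IgG. As a share of its list it did not stand out: the windows held 0.131% and 0.121% of the RBFOX2 peaks, 0.187%, 0.153%, 0.200% and 0.198% of the SLBP peaks and 0.141% of the IgG peaks.

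Pooled over the 8 genes, the median fold was higher in RBFOX2 than in the controls, but this did not hold gene by gene: SLBP replicate 2 had a higher median than both RBFOX2 replicates in QKI, TIA1 and CELF1, and SLBP replicate 1 did in QKI. The median log2 fold of the peaks in the windows was 2.03 and 2.33 in RBFOX2 replicates 1 and 2, 1.24, 1.25, 0.66 and 0.84 in SLBP replicates 1 to 4, and 1.25 in IgG. The library means were 2.18 ± 0.21 for RBFOX2 (SD, n = 2) and 1.00 ± 0.30 for SLBP (SD, n = 4), a difference of 1.18 (exact permutation p = 0.133). In the whole lists RBFOX2 was below every control except SLBP replicate 3, with medians of 0.73 and 0.86 for RBFOX2, 1.57, 1.46, 0.66 and 1.17 for SLBP and 1.31 for IgG. Few of the RBFOX2 peaks in these genes lay below input: 11 of 98 (11.2%, 5.74 to 19.2) and 9 of 118 (7.63%, 3.55 to 14.0), where 32.6% and 31.0% of the whole RBFOX2 lists did. For SLBP the shares below input were 6.98%, 10.7%, 11.8% and 5.00%, against 7.02%, 9.45%, 23.4% and 17.0% of its whole lists. The lower shares of replicates 3 and 4 rest on 4 of 34 and 1 of 20 peaks. Their exact intervals, 3.30 to 27.5 and 0.127 to 24.9, include the shares of the lists, so no difference is shown. For IgG the share below input was 10.0%, against 10.7% of the list. The mean share below input was 9.43% ± 2.54 for RBFOX2 (SD, n = 2) and 8.61% ± 3.17 for SLBP (SD, n = 4), a difference of 0.81 percentage points (exact permutation p = 0.667).

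The control libraries rarely reached either limit in these genes. The log2 fold limit alone was passed by 22 of 98 and 37 of 118 RBFOX2 peaks. In SLBP it was passed by 1 of 43, 2 of 28, 0 of 34 and 2 of 20 peaks, and in IgG by 1 of 40. The p limit alone was passed by 29 and 47 RBFOX2 peaks and by 0 peaks of each SLBP list and of IgG. The share of each whole list that passed 1 limit alone is not given here, so these counts do not show how the genes differ from the lists. The highest log2 fold of a control peak was 3.24, in TIAL1 in SLBP replicate 1, and the highest −log10 p was 4.04. Many control peaks had the same fold as another peak of their library in the windows. There were 24 of 43, 15 of 28, 24 of 34 and 14 of 20 such peaks in SLBP replicates 1 to 4. In IgG there were 22 of 40, against 19 of 98 and 19 of 118 in RBFOX2.

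**Figure D1:**
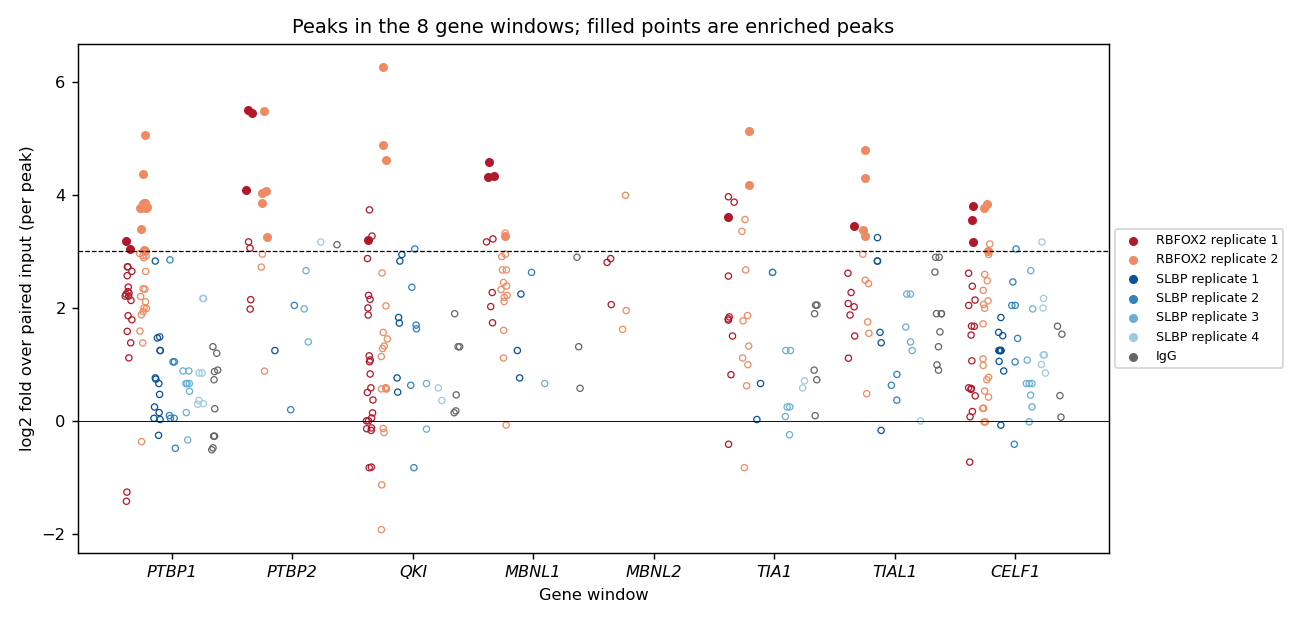
Each point is 1 peak in 1 of the 8 gene windows, with the authors' log2 fold over the paired input on the y axis, and libraries are side by side within each gene, RBFOX2 first, then SLBP and IgG. Filled points are enriched peaks, the dashed line is a log2 fold of 3, and filled points appear only for RBFOX2, in every gene except MBNL2, up to 6.26 in QKI.

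PTBP1 held the most RBFOX2 peaks over both replicates together, though QKI had more in replicate 1, and the replicates differed most in its enriched peaks. It had 20 and 30 peaks in RBFOX2 replicates 1 and 2, 14, 7, 8 and 7 in SLBP replicates 1 to 4, and 10 in IgG, of which 2 and 14 were enriched in RBFOX2. Its window is the shortest of the 8, and per 10 kb this was 13.2 and 19.9 RBFOX2 peaks, while in the other 7 genes the RBFOX2 values ran from 0.17 to 4.22 per 10 kb. The high density was not particular to RBFOX2. In PTBP1 it was 9.27, 4.64, 5.30 and 4.64 per 10 kb in SLBP replicates 1 to 4 and 6.62 in IgG. In the other 7 genes it reached at most 2.53 in SLBP and 4.22 in IgG. The median log2 fold was 2.22 and 2.94 in RBFOX2, 0.70, 0.09, 0.66 and 0.84 in SLBP, and 0.47 in IgG, so the RBFOX2 and control libraries did not overlap.

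Most of the PTBP1 signal lay in the middle of the gene, in 1 run of peaks from chr19:805591-806948 (1358 nt). There RBFOX2 replicate 1 had 13 peaks, 1 of them enriched, with log2 folds from 1.11 to 3.04 and a median of 2.21. Replicate 2 had 21 peaks, 11 of them enriched, from 1.38 to 4.38 with a median of 3.02. Both libraries had peaks along the run, but replicate 2 also had some where replicate 1 had none. Among these was an enriched peak at 805977 to 806038, with 3.76. Where peaks of both replicates overlapped, the fold was higher in replicate 2. IgG had 2 peaks in the run, up to 1.31, and SLBP had 2, 1, 1 and 1. The SLBP peaks of replicates 1, 2 and 4 between 805695 and 805742 reached 2.83, 2.85 and 2.17, under the limits but among the highest control peaks in PTBP1, at a place where the RBFOX2 peaks were at 2.24 and 3.84.

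Where an enriched peak of one RBFOX2 replicate overlapped an enriched peak of the other, the nucleotides in common are called a shared region here, and its fold is that of the highest overlapping peak. PTBP1 had 2 shared regions, both on the plus strand. The first, chr19:806324-806389 (66 nt), lay in this run, 9.06 kb from the 5′ edge of the window, with log2 folds of 3.04 and 4.38. The second, chr19:808079-808168 (90 nt), lay 10.82 kb from the 5′ edge, with 3.19 and 5.06, and no SLBP or IgG peak touched either. The last 2 kb of the gene looked different: they held 6 of the 10 IgG peaks, and 7 of 14, 3 of 7, 4 of 8 and 3 of 7 peaks in SLBP replicates 1 to 4. Of the RBFOX2 peaks they held 2 of 20 and 0 of 30, and these 2 were below input, at −1.43 and −1.27.

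PTBP2 had fewer peaks but the largest share of enriched ones of the 8 genes in both replicates. It had 7 and 8 peaks in RBFOX2, 1, 2, 3 and 1 in SLBP and 1 in IgG, and 3 and 5 of the RBFOX2 peaks were enriched. The median log2 folds in RBFOX2, 3.17 and 3.56, are those of few peaks. No RBFOX2 peak in PTBP2 was below input, and all of them lay downstream of position 97263142, in the later part of the window.

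The PTBP2 regions shared by both RBFOX2 replicates were 3, the most of any of these genes. The strongest was chr1:97271419-97271462 on the plus strand (44 nt, 84.34 kb from the 5′ edge), with log2 folds of 5.50 and 5.49 and −log10 p of 15.1 and 15.7. Further downstream lay chr1:97272183-97272255 (73 nt) with 5.45 and 4.03, at the end of a 503 nt cluster that held 4 peaks in each replicate, 1 and 3 of them enriched. The third, chr1:97263253-97263256, was only 4 nt wide, the width of the peak in replicate 1, and had 4.09 and 4.07 with −log10 p just above the limit, at 5.09 and 5.11. These were the highest folds in the weaker replicate among all shared regions of the 8 genes, and no SLBP or IgG peak touched them. The single IgG peak in PTBP2, of 2 nt, had a log2 fold of 3.12, and the SLBP folds were 0.19 to 3.17.

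QKI combined many weak RBFOX2 peaks with 1 strong site. It had 24 and 18 peaks in RBFOX2, 6, 6, 2 and 2 in SLBP and 6 in IgG, but 1 and 3 enriched ones. The median log2 folds, 0.71 and 1.21, were the lowest of the 8 genes in both RBFOX2 replicates. They lay below the 1.78 and 1.66 of SLBP replicates 1 and 2 and above the 0.26 and 0.47 of SLBP replicates 3 and 4, and the IgG median of 0.88 fell between them. QKI held 7 of the 11 and 4 of the 9 RBFOX2 peaks below input. Most QKI peaks were near the 3′ end: 18 of 24 and 12 of 18 lay in the last 15% of the window.

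The QKI site enriched in both replicates was chr6:163986275-163986362 on the plus strand (88 nt), 13.38 kb from the 3′ edge. Its log2 fold was 3.20 in replicate 1 and 6.26 in replicate 2, which was the highest fold of any peak in the 8 genes and also the largest gap between the replicates at a shared region. The cluster around it, 526 nt long, had 4 peaks from 1.87 to 3.20 in replicate 1 and 3 peaks from 4.62 to 6.26 in replicate 2, so that the replicates did not overlap. No SLBP or IgG peak touched the site.

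In MBNL1 the stronger RBFOX2 replicate was replicate 1. It had 8 and 15 peaks in RBFOX2, 3, 1, 1 and 0 in SLBP and 3 in IgG, and 3 and 1 of the RBFOX2 peaks were enriched. Its shared region was chr3:152164955-152165023 on the plus strand (69 nt, 18.61 kb from the 3′ edge), with log2 folds of 4.34 and 3.27. Upstream of it, at 152164433 to 152164489, replicate 1 had an enriched peak of 4.58, while the overlapping peak of replicate 2 had 2.91 and did not pass. Just downstream, the peaks at 152165054 to 152165105 had 4.32 in replicate 1, which was enriched, and 1.60 in replicate 2. None of the SLBP or IgG peaks in MBNL1 lay at these places, and the highest of them had 2.90.

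MBNL2 had 3 peaks in each RBFOX2 library and none in SLBP or IgG, and none was enriched. The highest was at chr13:97933170-97933217 in replicate 1, with a log2 fold of 2.87, and at chr13:98017393-98017438 in replicate 2, with 3.99 and a −log10 p of 4.72, just under the limit of 5. The overlapping peak of replicate 1 at the second place had 2.81. The median log2 folds of the 3 peaks were 2.81 and 1.95. The part of the RefSeq gene outside its window was not analysed here.

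TIA1 had 10 and 12 peaks in RBFOX2, 2, 2, 6 and 2 in SLBP and 6 in IgG, with 1 and 2 enriched RBFOX2 peaks. The median log2 fold was 1.82 in both RBFOX2 replicates, 0.34, 2.63, 0.24 and 0.64 in SLBP and 1.40 in IgG. The shared region lay near the start of the gene, at chr2:70475252-70475302 on the minus strand (51 nt), 0.52 kb from the 5′ edge of the window, with log2 folds of 3.60 and 5.13. Closer to the 5′ edge, between 70475531 and 70475621, all 7 libraries had a peak, and there RBFOX2 was the lowest, with −0.42 and −0.83, against 0.66, 2.63, −0.25 and 0.58 in SLBP and 2.05 in IgG. The enriched site and the place with background signal were therefore apart. A second place, further into the gene, had 3.97 and 4.17 in the peaks at 70446221 to 70446313, of which replicate 2 passed both limits and replicate 1 missed the p limit with a −log10 p of 4.50.

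TIAL1, the close relative of TIA1, also had its enriched RBFOX2 peaks near the start of the gene. It had 8 and 10 peaks in RBFOX2, 6, 3, 5 and 1 in SLBP and 10 in IgG, of which 1 and 4 were enriched in RBFOX2. All 8 and all 10 RBFOX2 peaks were within 2 kb of the 5′ edge of the window. So were 4 of 6, 2 of 3, 1 of 5 and 1 of 1 SLBP peaks and 3 of 10 IgG peaks. Most fell in 1 cluster at chr10:121355296-121355929 on the minus strand (634 nt), with 7 peaks in replicate 1 and 8 in replicate 2. The shared region in it, chr10:121355589-121355704 (116 nt, 0.95 kb from the 5′ edge), had log2 folds of 3.44 and 4.79, and −log10 p of 19.7 and 45.3. It was the only shared region touched by an SLBP peak, of 2.83 in replicate 1 with a −log10 p of 1.09, and an IgG peak of 1.31 lay there too. The median log2 fold in TIAL1 was 2.05 and 2.72 in RBFOX2, 2.20, 0.63, 1.66 and −0.00 in SLBP and 1.90 in IgG, so SLBP replicate 1 lay above RBFOX2 replicate 1.

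CELF1 had 18 and 22 peaks in RBFOX2, 11, 7, 9 and 7 in SLBP and 4 in IgG, and 3 enriched peaks in each RBFOX2 replicate. The median log2 fold was 1.59 and 1.85 in RBFOX2, 1.24, 2.04, 0.66 and 1.17 in SLBP and 0.99 in IgG. The enriched peaks were mostly near the 5′ edge of the window. The window is shorter than the RefSeq gene, so this edge is not shown to be the start of the gene. A cluster there, at chr11:47574026-47574665 on the minus strand (640 nt), held 7 peaks in each replicate, 2 and 3 of them enriched. The shared region, chr11:47574287-47574373 (87 nt, 0.47 kb from the 5′ edge), had log2 folds of 3.56 and 3.76 and the closest replicates among the shared regions outside PTBP2, and an IgG peak of 1.67 touched it. The third enriched peak of replicate 1, at 47536035 to 47536088, had 3.81, and the overlapping peak of replicate 2 had 2.59. Toward the 3′ edge, the last 15% of the window held 8 of 18 and 13 of 22 RBFOX2 peaks, and none of these was enriched. The highest SLBP peak in CELF1, in replicate 4, had a log2 fold of 3.17.

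**Figure D2:**
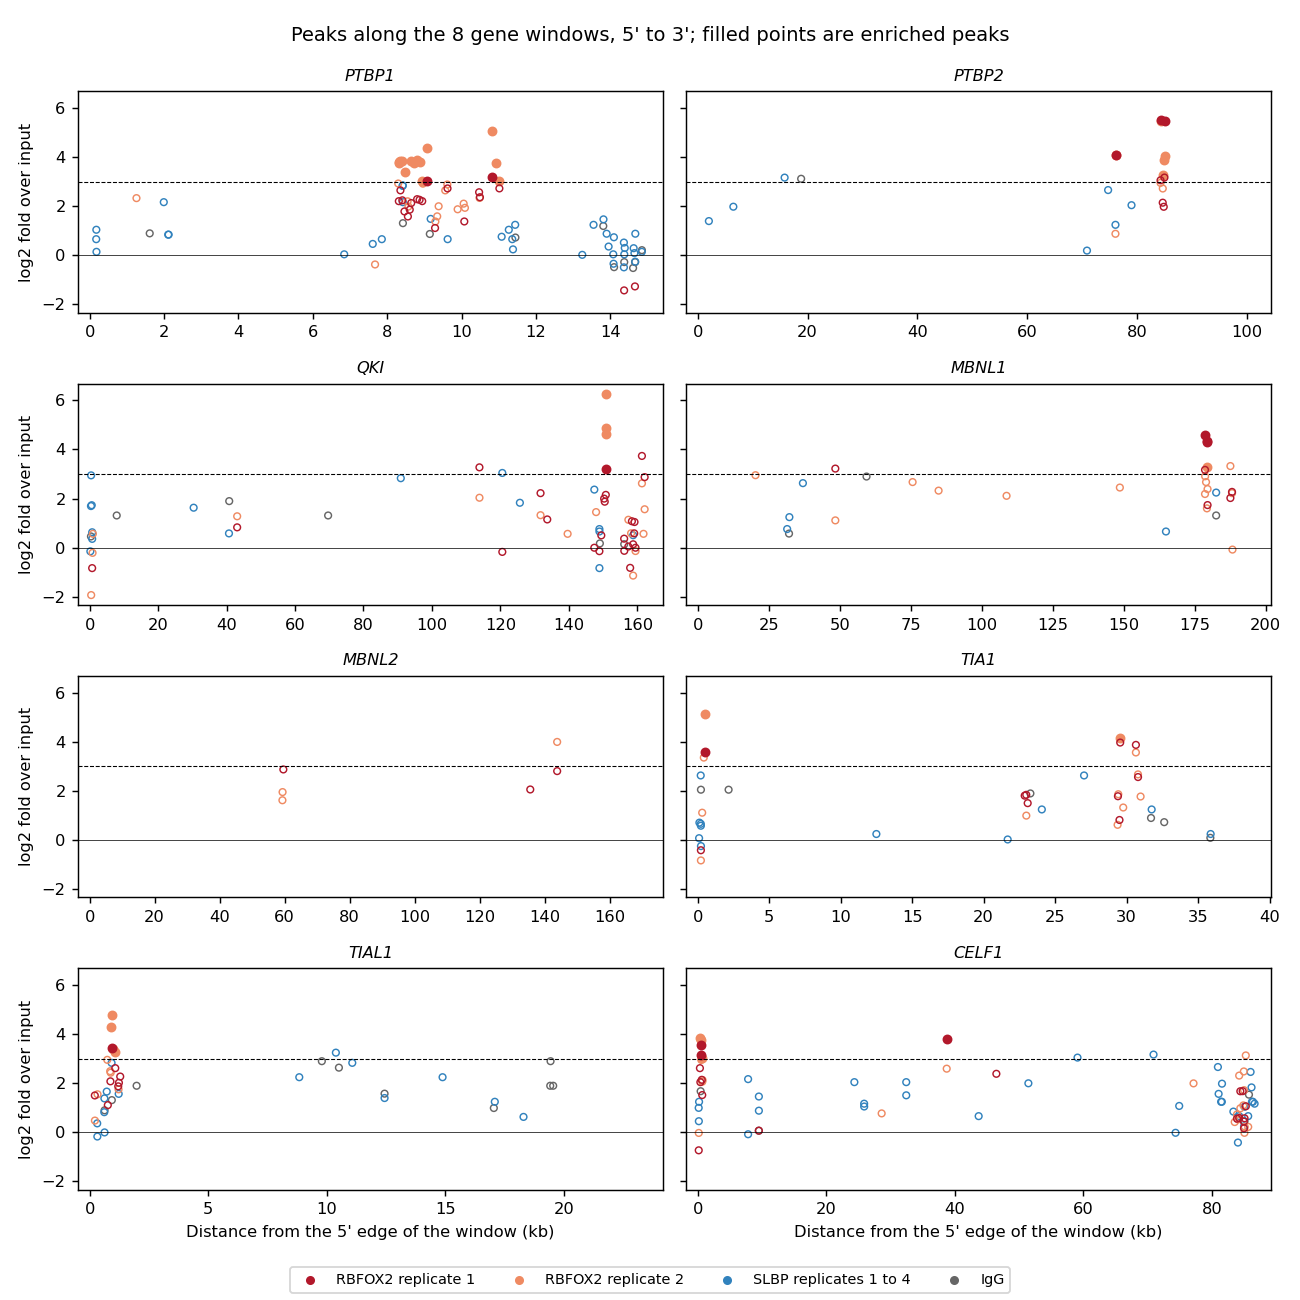
Each panel is 1 gene, with the distance from the 5′ edge of its window in kb on the x axis, the authors' log2 fold over input on the y axis and 1 point per peak; filled points are enriched and the dashed line is a log2 fold of 3. Enriched RBFOX2 peaks gather in the middle of PTBP1, late in PTBP2, QKI and MBNL1, and mostly within 1.2 kb of the 5′ edge in TIA1, TIAL1 and CELF1, and SLBP and IgG points are unfilled throughout.

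Across the 8 genes there were 10 regions enriched in both RBFOX2 replicates, in 7 genes, out of 2618 such regions in the whole lists. Their median width was 71 nt, against 64 nt over all 2618. The log2 fold in the weaker replicate ran from 3.04 in PTBP1 to 5.49 in PTBP2. At 2 of the 10, in TIAL1 and CELF1, an IgG peak overlapped, and at 1 an SLBP peak did. By position, 3 of the 10, those of TIA1, TIAL1 and CELF1, were within 1.2 kb of the 5′ edge, and the other 7 lay at 60.0% to 91.8% of the window. Of all peaks, 18 of 98 and 25 of 118 in RBFOX2 and 7 of 40 in IgG were within 2 kb of the 5′ edge. In SLBP replicates 1 to 4 it was 9 of 43, 6 of 28, 6 of 34 and 6 of 20. Of the enriched RBFOX2 peaks, 4 of 14 and 8 of 32 lay there. Peaks near the 5′ edge were therefore not particular to RBFOX2.

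**Figure D3:**
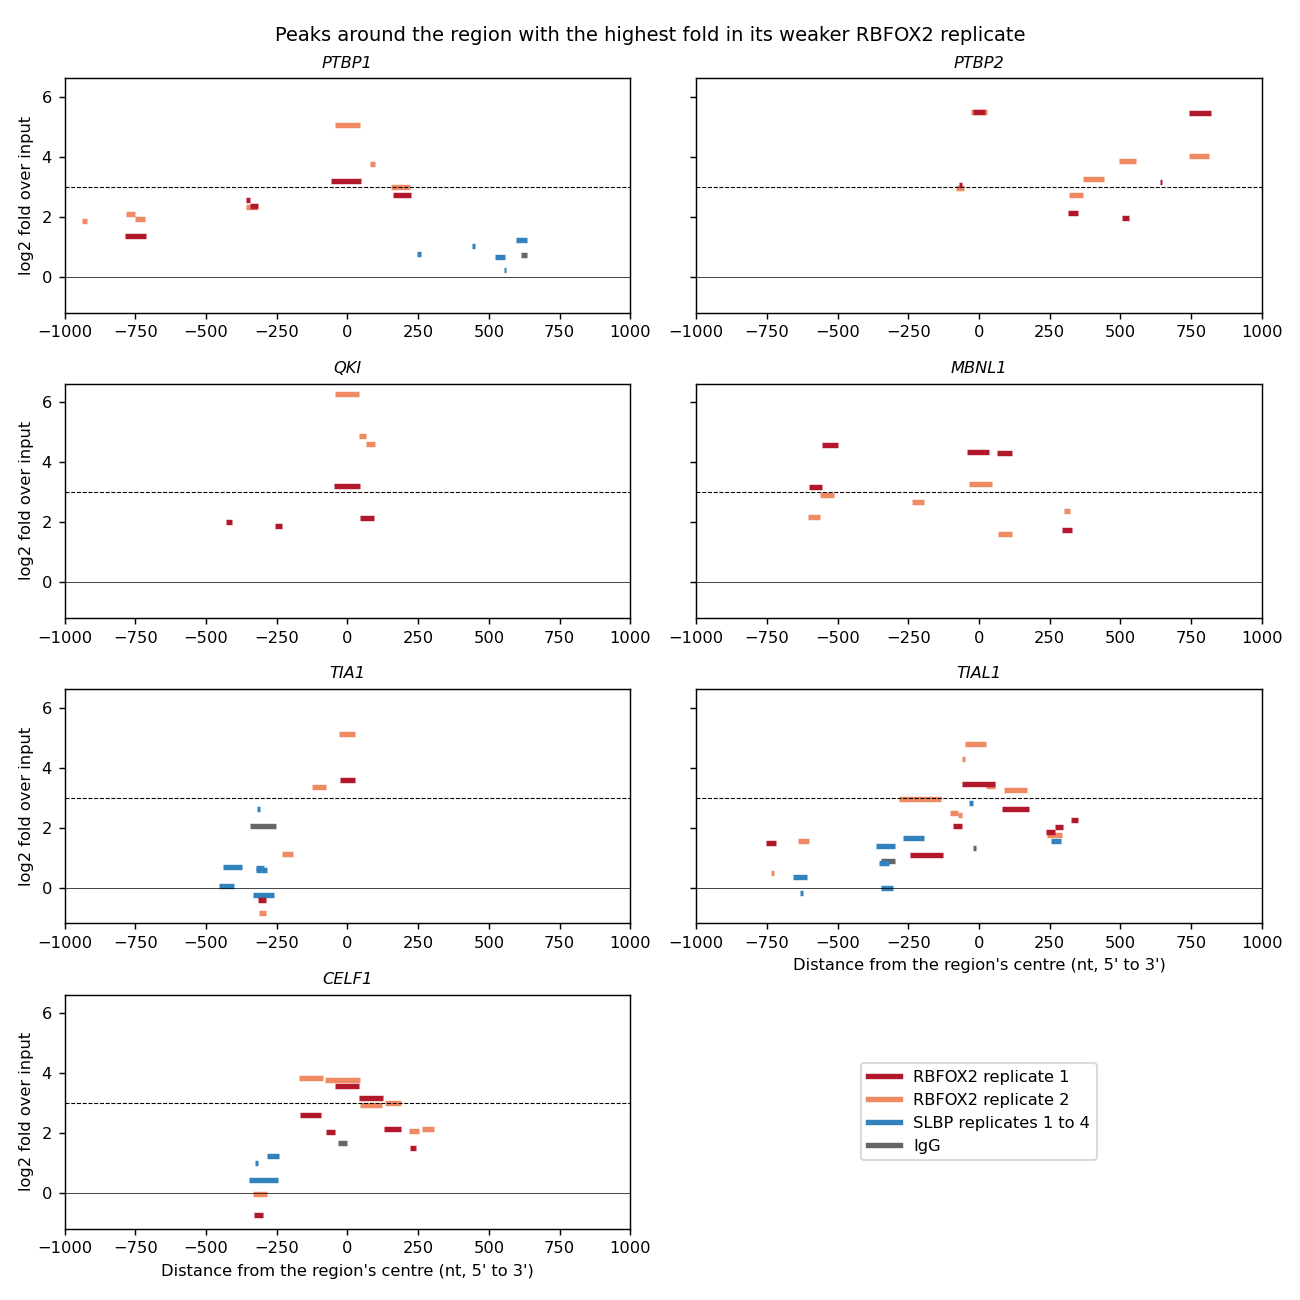
Each panel shows the peaks within 1000 nt of the centre of 1 shared region in each of 7 genes, the one with the highest fold in its weaker replicate; bars span the peaks, read 5′ to 3′ along the transcript, at the height of the authors' log2 fold over input, and the dashed line is a log2 fold of 3. RBFOX2 bars of both replicates overlap at the centre of every panel; bars of the controls overlap the shared region in TIAL1, with SLBP replicate 1 at 2.83 and IgG at 1.31, and in CELF1, with IgG at 1.67.

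The RBFOX2 replicates were also compared by the overlap of their peaks. Replicate 1 had 14 enriched peaks, and 11 of them met an enriched one in replicate 2 (78.6%), where 68.7% of enriched peaks of the whole list did. In the other direction it was 13 of 32 (40.6%), where 60.7% of the whole list did. PTBP1 held 14 of these 32, and only 2 of its 14 met an enriched peak of replicate 1, so the lower share rests largely on PTBP1. With any peak of the other replicate, the counts were 14 of 14 and 29 of 32, so most of the enriched peaks of replicate 2 that were not shared overlapped a peak of replicate 1 that did not pass. Over all peaks, 73 of 98 (74.5%) and 80 of 118 (67.8%) overlapped a peak of the other replicate, against 60.6% and 47.9% of the whole lists. Overlap with the controls was lower: 11 of 98 and 8 of 118 RBFOX2 peaks touched an IgG peak, and between 3 and 11 touched a peak of a given SLBP list. The IgG and SLBP lists are all shorter than the RBFOX2 lists. Of the enriched RBFOX2 peaks, 2 of 14 and 4 of 32 touched an IgG peak, and between 0 and 2 touched a peak of a given SLBP list.

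Pairing each RBFOX2 peak of replicate 1 with the replicate 2 peak that covered its midpoint gave 72 pairs in the 8 genes. Some replicate 2 peaks entered more than 1 pair, so their values are repeated. The median difference, replicate 2 minus replicate 1, was 0.43 on the log2 scale (SD 1.23), and replicate 2 was higher in 44 of 72. Over the 42129 pairs of the whole lists it was −0.11 (SD 1.08), with replicate 2 higher in 46.0%. The difference between these genes and the whole lists was not tested. PTBP1 carried much of it: its 18 pairs had a median of 1.27 and replicate 2 was higher in 16, and without PTBP1 the other 54 pairs had a median of 0.14. CELF1 went the same way with 0.71 over 15 pairs, MBNL1 the other way with −1.03 over 8 pairs, of which replicate 2 was higher in 2, and PTBP2 was level with −0.01 over 6. TIAL1 had 0.41 and TIA1 0.11, over 7 pairs each, and QKI had −0.52 over 10 with a range of −1.31 to 3.06. Across the 72 pairs Pearson's r was 0.61 and Spearman's rho 0.54, as a description, since pairs of 1 gene share neighbouring peaks and libraries.

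**Figure D4:**
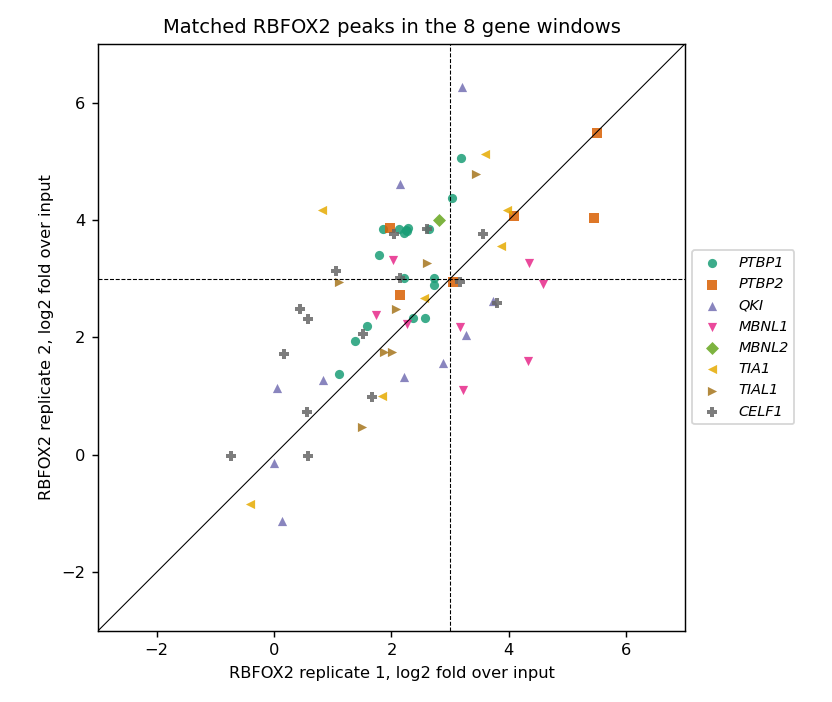
Each point is 1 of the 72 pairs of overlapping RBFOX2 peaks, with the authors' log2 fold over input in replicate 1 on the x axis and in replicate 2 on the y axis, marked by gene; the solid line is equality and the dashed lines are a log2 fold of 3. PTBP1 points lie mostly above the line (16 of 18), MBNL1 points mostly below it (6 of 8), and the highest PTBP2 point is on it, at 5.50 and 5.49.

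The amount of RNase I could be compared within SLBP alone. The median log2 fold in the 8 genes was 0.66 and 0.84 at 5 U and 1.24 and 1.25 at 40 U, that is 0.75 ± 0.13 at 5 U and 1.25 ± 0.0046 at 40 U (SD, n = 2 each). The whole SLBP lists were ordered the same way, with medians of 0.66 and 1.17 at 5 U and 1.57 and 1.46 at 40 U. In the 8 genes the groups did not overlap, and the difference of −0.50 had an exact permutation p of 0.333, the smallest that 2 against 2 libraries can give. Replicate numbers change together with the RNase I amount, so these cannot be told apart. These medians are those of few peaks, 34 and 20 at 5 U and 43 and 28 at 40 U.

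The relatives PTBP3, MBNL3 and CELF2, taken by windows of the same kind, had 15 and 18 RBFOX2 peaks in all and 9 IgG peaks, with 3 and 1 enriched in RBFOX2. MBNL3, the third muscleblind gene, had 7 and 9 of these and the single shared region, chrX:131622881-131622967 on the minus strand (87 nt, 1.08 kb from the 5′ edge), with 4.44 and 3.63. PTBP3 had 5 and 5 RBFOX2 peaks, none of them enriched, and 7 IgG peaks, and CELF2 had 3 and 4, of which 1 and 0 were enriched. The 9 SR and TRA2 genes, another set of splicing factors, had 169 and 156 RBFOX2 peaks, of which 15 (8.88%) and 19 (12.2%) were enriched and 50.9% and 50.6% lay below input. They held 7 shared regions in 3 genes, against 10 in 7 of the 8 genes described here. An IgG peak overlapped 3 of these 7, against 2 of the 10. The SR and TRA2 windows ran from 3.3 to 47.3 kb and those of the 8 genes from 15.1 to 197.8 kb. These counts do not take the lengths into account, so they do not show which set is richer in shared regions. Differences between these sets were not tested.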

How the data were processed

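Peak lists from eCLIP in 293T cells were read for 7 of the 24 samples of the series: 2 RBFOX2, 4 SLBP and 1 IgG. Their 7 inputs entered only through the authors' folds. A further 10 RBFOX2 samples, labelled as shearing conditions from 0 to 2000 U of RNase I, were not analysed here. Each deposited list holds stranded intervals, each with a log2 fold and a −log10 p-value, without headers, and the units were read from the values. The deposited log2 fold is the authors' ratio of immunoprecipitation over paired input, and the deposited −log10 p has a ceiling of 400. Per the submitters' processing notes, reads were handled with STAR, cutadapt, SAMtools, Picard and GATK on hg19; for the peak caller, the name was not given in the sources used here. Peaks were treated as called per library. The lists hold no read counts, so depth is unknown.

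Peaks were assigned to the 8 windows by 1 nt of overlap on the same strand. Coordinates count from 1. No hg19 genome or annotation was used, and windows were checked against RefSeq genes on GRCh38.p14 for chromosome, strand and length only. Windows of 12 further genes were written from general knowledge; for these, 1 of 3 and 6 of 9 lengths came within 2% of RefSeq. The genes and lists were chosen with earlier results of these data known. All 8 genes are named, with up to 3 regions each that were enriched in both RBFOX2 replicates, or the highest peak of each RBFOX2 list where there was none. Other single peaks, and clusters of 2 or more RBFOX2 peaks with gaps of up to 200 nt, were chosen after their values were seen. Tests between libraries were exact permutation tests, two-sided, over 1 value per library, which could not pass 0.05 in this design. Intervals on shares above 0 are exact (Clopper-Pearson, 95%), and the limit on a share of 0 is 3 counts of the total. Alternatives changed the limits on p and fold, window edges, assignment, merging of touching peaks, the gene with the most peaks and the libraries used. The counting and tests were tested on simulated peak lists. Python 3.11.15, pandas 2.3.3, NumPy 2.4.6, SciPy 1.17.1 and matplotlib 3.10.9 were used.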

Additional observations from a re-analysis of the deposited data

Results flagged for a closer look

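The number of SLBP peaks at PTBP1 had 1 library far from the other SLBP libraries: 14 in replicate 1, against 7, 8 and 7 in replicates 2 to 4, and the gap of replicate 1 took 0.857 of the whole range (critical value 0.829 for 4 libraries). At TIA1, SLBP replicate 3 had 6 peaks where replicates 1, 2 and 4 had 2 each, so its gap was the whole range (1). Of 11 quantities of the SLBP libraries examined in this way, these 2 stood out. Chance gives about 1 in 20 for continuous values. Most of the 11 were small counts with ties, so this rate cannot be applied to them. The 4 libraries also differ in the amount of RNase I. None of these SLBP peaks was enriched, and they enter only the counts of peaks called and the SLBP medians.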

How the results depend on the processing

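The difference in enriched peaks between RBFOX2 and SLBP was 23, and no alternative turned its direction. It was 36.5 with a log2 fold of at least 2, 5.5 with a −log10 p of at least 10 and a log2 fold of at least 4, and 15 without PTBP1. Leaving out each library in turn gave 14 to 32; it was 14 without RBFOX2 replicate 2. With a −log10 p of at least 3 it was 27.5 and with touching peaks merged 17. The share of enriched peaks ranged from 4.92 to 33.4 percentage points over the 15 alternatives, and the difference in median log2 fold from 0.85, without PTBP1, to 1.33 over 13. With replicates 1 and 2 as pairs (replicate block), the differences were 23, 20.7 and 0.94, with exact permutation p-values of 0.5, the smallest that 2 pairs allow; the labels do not say that equal numbers share a culture or day. The regions enriched in both RBFOX2 replicates numbered 10; they were 21 with a log2 fold of at least 2 and 2, both in PTBP2, under the stricter limits. With at least 10 nt in common there were 9, without the 4 nt region of PTBP2. The difference between SLBP at 5 U and at 40 U stayed between −0.59 and −0.40. Exact permutation p-values over these alternatives were 0.133 to 0.667, and no setting could pass 0.05. The mean count of enriched RBFOX2 peaks of a single gene moved by over 1.5 times in 7 of 8 genes under the stricter limits. Small numbers of peaks, 2 RBFOX2 libraries, 1 IgG library, unknown read depth, windows that cut off parts of MBNL1, MBNL2 and CELF1, and lists whose scaling is not known to match limit every value given here.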

Other observations

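Among the 8 genes, 2 pairs of overlapping RBFOX2 peaks passed the fold limit in both replicates without both being enriched, and both pairs were in TIA1. At one of them neither peak was enriched: chr2:70445125-70445170 on the minus strand, with a log2 fold of 3.87 and a −log10 p of 4.09 in replicate 1, and 3.56 and 3.28 at 70445131 to 70445165 in replicate 2. The peaks at 70446221 to 70446313, given above, are the other pair, with replicate 1 just under the p limit.

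The strand opposite to the 8 genes carried 1 peak in each RBFOX2 list, both in the MBNL1 window, with log2 folds of 0.41 and −1.55, and no peak in any SLBP list or in IgG.

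Of the 72 pairs of overlapping RBFOX2 peaks, 51 had starts within 10 nt of each other.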
